A study of Homo sapiens with 8 samples.

Results

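The CDK inhibitors and the RB family were followed across 8 arrays of DAOY cells. DAOY is an established human medulloblastoma cell line. All probes whose platform annotation carries the symbol of 1 of 10 listed genes were taken: CDKN1A, CDKN1B, CDKN1C, CDKN2A, CDKN2B, CDKN2C, CDKN2D, RB1, RBL1 and RBL2. This gave 15 of the 22184 probes on the array, for 9 of the 10 genes and of 16578 genes named on the array. CDKN2C had no probe in the annotation used here. The 5 MXD3 lines carried the plasmid pHM6-MXD3, the 2 vector lines carried empty pHM6, and 1 array held untransfected parental DAOY cells. All 7 stable lines were kept under G418 at 800 µg/ml, and the protocol names no selection for the parental cells. The labels do not say whether a numbered line is a clone, so the p-values measure only the spread between these samples. In RNA from whole cultures, fewer cells expressing a gene and less RNA per cell cannot be told apart.

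CDK inhibitors bind the cyclin-dependent kinases that drive cells from G1 into S phase. The CIP/KIP proteins (CDKN1A, CDKN1B and CDKN1C) bind cyclin-CDK complexes broadly, and the INK4 proteins (CDKN2A to CDKN2D) bind CDK4 and CDK6. The pocket proteins RB1, RBL1 and RBL2 hold E2F factors and repress cell-cycle genes until CDKs phosphorylate them. MXD3 belongs to the MXD family, whose members pair with MAX and bind E-boxes, the sites that MYC-MAX also binds.

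Windows of 300 bases around RefSeq start sites (build GRCh38.p14) were read for 9 of the 10 genes, as 13 windows. CDKN1C had no window. RB1 had 1 window, at chr13:48476200-48476499. Whether that window covers the main RB1 promoter was not checked, so nothing is read from its motifs. The motifs searched on both strands were the E-box CACGTG, the GC box GGGCGG, the E2F words TTTCGCGC, TTTGGCGC, TTTCCCGC and TTTGCCGC, and the CHR word TTTGAA. Of 35116 RefSeq windows of this length, 7.26% held the E-box, 45.0% the GC box, 3.31% an E2F word and 15.2% the CHR word. Only 2 of the 13 windows held CACGTG, and both belong to CDKN2C, the gene without a probe. The windows of CDKN1A and CDKN2D are shown because those inhibitors had the smallest unadjusted p-values among the members. The RBL1 window and 1 of the 2 RBL2 windows are shown because they hold E2F and CHR words. Capitals mark the motif matches, and each sequence is written 5′ to 3′ on the strand of its gene.
CDKN1A, chr6:36678464-36678763, plus strand: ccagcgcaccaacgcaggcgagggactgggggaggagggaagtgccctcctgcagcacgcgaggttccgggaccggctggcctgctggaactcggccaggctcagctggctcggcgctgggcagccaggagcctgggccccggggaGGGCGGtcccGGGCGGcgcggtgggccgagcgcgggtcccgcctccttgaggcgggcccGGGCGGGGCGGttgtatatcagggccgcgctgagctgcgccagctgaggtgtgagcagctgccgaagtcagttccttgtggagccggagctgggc
CDKN2D, chr19:10568930-10569229, minus strand: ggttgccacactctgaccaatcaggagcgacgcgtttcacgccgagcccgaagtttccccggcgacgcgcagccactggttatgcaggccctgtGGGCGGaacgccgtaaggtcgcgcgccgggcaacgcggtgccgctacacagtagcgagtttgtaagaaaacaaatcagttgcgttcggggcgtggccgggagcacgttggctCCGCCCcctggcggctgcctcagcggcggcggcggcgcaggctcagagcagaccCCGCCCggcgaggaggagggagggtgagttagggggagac
RBL1, chr20:37095948-37096247, minus strand: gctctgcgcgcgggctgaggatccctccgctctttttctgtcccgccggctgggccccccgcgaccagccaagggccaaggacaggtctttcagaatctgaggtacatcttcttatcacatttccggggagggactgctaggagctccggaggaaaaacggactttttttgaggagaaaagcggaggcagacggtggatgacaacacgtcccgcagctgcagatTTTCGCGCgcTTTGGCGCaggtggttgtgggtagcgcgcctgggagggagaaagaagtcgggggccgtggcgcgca
RBL2, chr16:53434221-53434520, plus strand: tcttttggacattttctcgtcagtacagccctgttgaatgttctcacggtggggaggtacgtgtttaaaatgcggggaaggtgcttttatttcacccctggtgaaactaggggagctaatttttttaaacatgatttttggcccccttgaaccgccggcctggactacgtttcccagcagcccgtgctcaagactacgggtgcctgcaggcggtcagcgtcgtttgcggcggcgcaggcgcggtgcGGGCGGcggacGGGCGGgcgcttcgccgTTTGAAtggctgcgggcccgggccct
The CDKN1A window holds 4 GC boxes and the CDKN2D window 3. The RBL1 window holds 2 E2F words, at bases 225 and 235 of the window. The RBL2 window shown holds 2 GC boxes and the CHR word at base 275, and the other RBL2 window holds none of the motifs. A match describes the letters only, and binding was not measured.

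Values are log2 intensities after background correction and quantile normalization, and a probe was called detected on an array when its detection p-value was below 0.05. Mean intensity ran from 1346 to 1797 per array, and 60.5% to 64.0% of probes were detected. Array pairs correlated at 0.969 to 0.987 over probes. Of the cerebellar and medulloblastoma markers, ZIC2, PAX6, MEIS1, GLI2 and SOX2 and 1 of the 2 OTX2 probes were detected on all 8 arrays, while ATOH1, ZIC1, BARHL1, GLI1 and NES were detected on none. On the MXD3 probe, MXD3 lines 1 to 5 read 7.47, 7.22, 6.98, 8.08 and 6.18, the vector lines 6.93 and 6.71, and parental cells 6.59. Line 5 lay below all 3 controls, and the difference of 0.44 ± 0.35 (SE) had a limma adjusted p of 0.655. The labels and tables used here do not say whether this probe lies within the transgene.

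Of the 15 member probes, 8 probes of 7 genes passed the filter of detection on at least 2 arrays and entered limma fits over 15214 probes. None of the 8 passed an adjusted p of 0.05 in any of the 4 comparisons. In the MXD3 lines against the 3 controls (2 vector and 1 parental), 0% of all probes were called. At an unadjusted p below 0.05, 2 of the 8 member probes (CDKN1A and CDKN2D, both with higher means in the MXD3 lines) stood against 11.3% of all probes, or 5.65% in that direction. The MXD3 lines and the controls did not overlap for 0 of the 8, against 7.6% of all probes. The median difference over the 8 was 0.14, with 7 positive, while 7600 of all 15214 probes were positive.

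**Figure D1:**
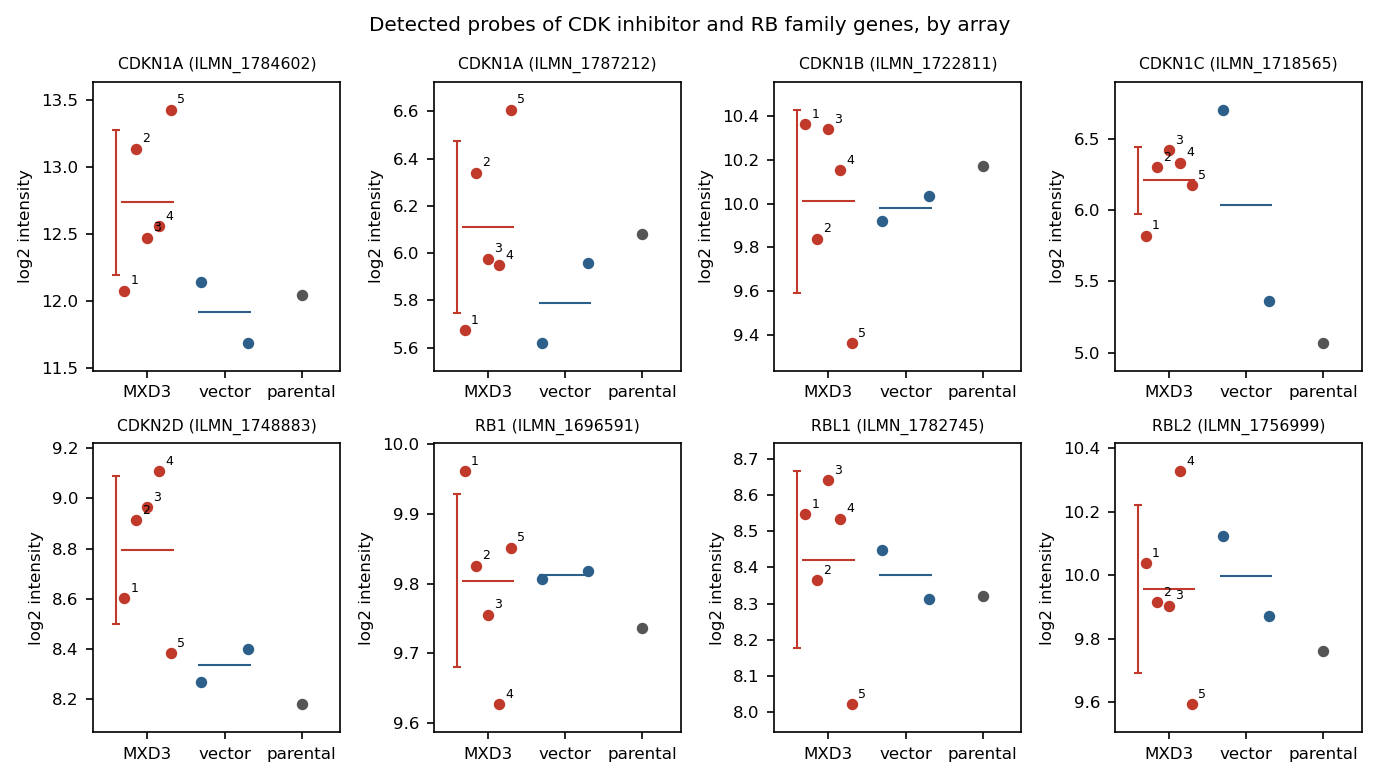
Log2 intensity of each tested member probe on every array, by group (5 numbered MXD3 lines, 2 vector lines, 1 parental array), with lines for group means, a bar for the SD of the MXD3 lines and an axis of its own in each panel. CDKN1A (ILMN_1784602) spans 12.08 to 13.43 in the MXD3 lines and 11.69 to 12.14 in the controls, while RB1 stays between 9.63 and 9.96 on all arrays.

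Among the CIP/KIP inhibitors, CDKN1A (p21, an inhibitor induced by p53) had the widest spread. On probe ILMN_1784602, MXD3 lines 1 to 5 read 12.08, 13.14, 12.47, 12.56 and 13.43, vector lines 1 and 2 read 12.14 and 11.69, and parental cells 12.05. MXD3 lines 2 to 5 lay above every control, and line 1 lay between the vector lines. The means were 12.74 ± 0.54 (SD, n = 5) and 11.96 ± 0.24 (SD, n = 3), a difference of 0.78 ± 0.29 (SE) or 1.71-fold, with a 95% interval of 0.13 to 1.42. The limma p was 0.0227 and the adjusted p 0.380, so the difference did not pass. Against the vector lines alone, the difference was 0.82 ± 0.35 (limma adjusted p = 0.651). CDKN1A was the 1 member probe with an unadjusted p below 0.05 there, against 7.57% of all probes, or 3.84% with higher means in the MXD3 lines. No member probe separated the MXD3 from the vector lines, against 12.8% of all probes. The spread among the 5 MXD3 lines exceeded that of 93.3% of probes, and the highest line was 2.56-fold above the lowest.

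The other CDKN1A probe, ILMN_1787212, annotated to another transcript, was dim. The MXD3 lines read 5.68, 6.34, 5.98, 5.95 and 6.61, the vector lines 5.62 and 5.96, and parental cells 6.08, and the probe was not detected in vector line 1. Lines 5 and 2 were again highest, but the groups overlapped, and the difference was 0.22 ± 0.22 (SE, limma adjusted p = 0.726). It was 0.098 without MXD3 line 5, 0.089 without vector line 1 and 0.078 without background correction. Over the 8 arrays the probes correlated at r = 0.792 (exact permutation p = 0.0193, adjusted over 22 pairs 0.213), with rho 0.476. Without MXD3 lines 2 and 5, the arrays farthest from the median of ILMN_1784602, r was 0.068. Leaving out arrays chosen by their values narrows the range, so that fall cannot decide where the relation rests.

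CDKN1B (p27, an inhibitor that accumulates in quiescent cells) was at 10.36, 9.84, 10.34, 10.16 and 9.36 across MXD3 lines 1 to 5, at 9.92 and 10.03 across vector lines, and at 10.17 for parental cells. Line 5 was the lowest of all arrays and line 1 the highest. The means of 10.01 ± 0.42 (SD, n = 5) and 10.04 ± 0.13 (SD, n = 3) differed by -0.03, with a 95% interval of -0.54 to 0.48 and a limma adjusted p of 0.970.

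CDKN1C (p57, an imprinted inhibitor) sat near the detection limit. The 5 MXD3 lines read 5.82, 6.30, 6.42, 6.33 and 6.17, all detected. Vector line 1 read 6.71, vector line 2 read 5.37 and parental cells 5.07, and only the first of these was detected. The vector lines thus lay above and below all 5 MXD3 lines. Against the vector lines the difference was 0.17 ± 0.33 (SE, limma adjusted p = 0.914). Without vector line 2 it became -0.50. Without vector line 1, the vector side was vector line 2 alone, where the probe was not detected, and the MXD3 lines were at least 1.44-fold higher. Against all controls it was 0.50 ± 0.33 (limma adjusted p = 0.588). It was 0.32 without vector line 2, 0.17 without the parental array and 0.16 without background correction. Without vector line 1 both remaining controls were below detection, and the MXD3 lines were at least 1.46-fold higher. The MXD3 lines were at least 1.48-fold higher than the parental array, where the probe was not well above background (limma adjusted p = 0.323). These bounds set the mean of the MXD3 lines against the lowest detected signal of the arrays compared. That limit ran from 5.62 to 5.82 over the 8 arrays. The bounds hold for the mean of background-corrected values only, not for each line or other processing. Without background correction, the log2 difference from the parental array was 0.40, smaller than the bound given.

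**Figure D2:**
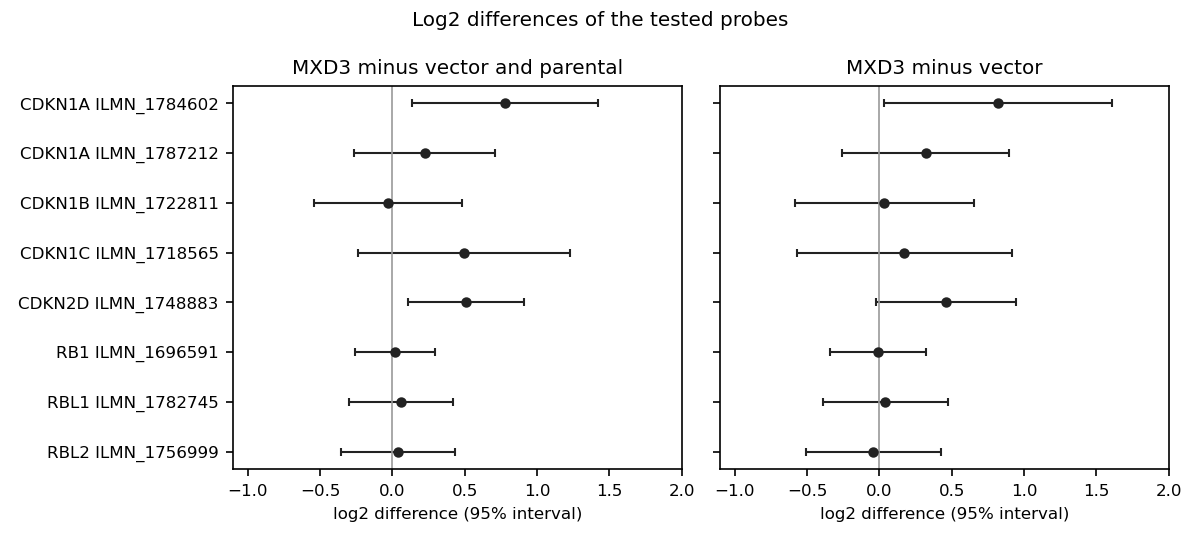
Log2 difference of each tested member probe, MXD3 lines minus the 3 controls on the left and minus the vector lines on the right, with its 95% interval. On the left, the intervals of CDKN1A (0.13 to 1.42) and CDKN2D (0.11 to 0.91) lie above 0 before adjustment, and no adjusted p passed.

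Of the INK4 inhibitors, CDKN2D (p19) was the one measured on all arrays. On probe ILMN_1748883, MXD3 lines 1 to 5 read 8.60, 8.91, 8.96, 9.11 and 8.38, the vector lines 8.27 and 8.40, and parental cells 8.18. Lines 1 to 4 lay above every control, and line 5 lay below vector line 2. The difference of 0.51 ± 0.18 (SE), or 1.43-fold, had a 95% interval of 0.11 to 0.91, a limma p of 0.0176 and an adjusted p of 0.363. Against the vector lines it was 0.46 ± 0.21 (limma adjusted p = 0.673). The other CDKN2D probe, ILMN_1740597, read 4.76 to 5.04 and was detected on 0 arrays.

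The CDKN2A locus encodes p16 (an inhibitor of CDK4 and CDK6) and ARF (which restrains MDM2), and CDKN2B next to it encodes p15. The p16 probe ILMN_1717714 lay between 4.87 and 5.45 across MXD3 lines, at 5.39 and 5.27 across vector lines, and at 5.70 for parental cells, the sole array where it was detected, at a detection p-value of 0.0405. ILMN_1744295 read 4.62 to 5.14 and ILMN_1757255 read 4.80 to 5.38, and both were detected on 0 arrays. The CDKN2B probes read 4.69 to 5.23 and 4.80 to 5.24, also detected on 0 arrays. Apart from that 1 parental reading, these probes were below detection on every array, and no fold is given. That reading lies near the lowest detected signal of its array, 5.64. Background readings can pass a detection cut of 0.05, so it is not read as p16 expression in parental cells.

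**Figure D3:**
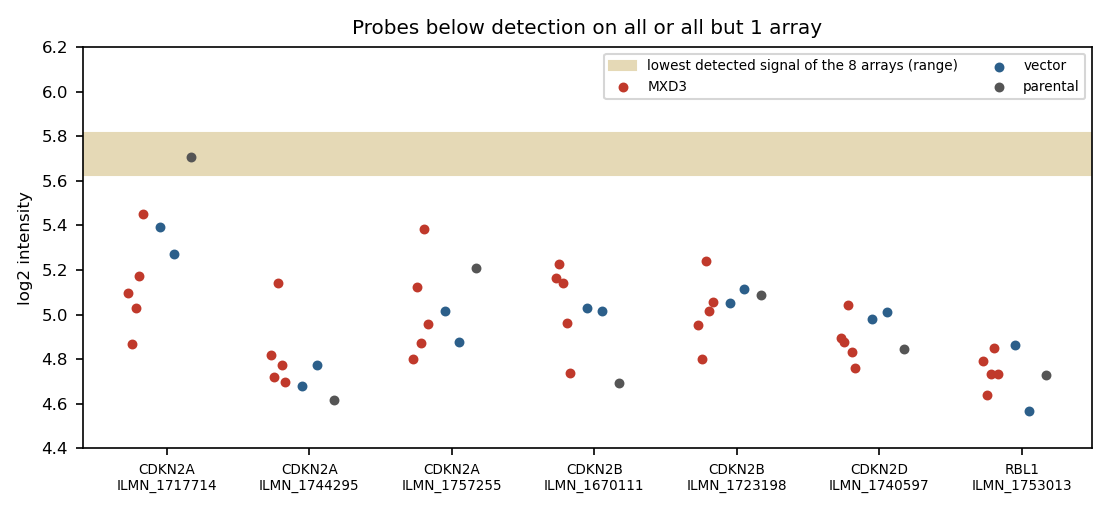
Log2 intensity of the 7 member probes that did not pass the detection filter, on each of the 8 arrays, beside a band for the range of the lowest detected signal. The single detected reading is CDKN2A in the parental cells, at 5.70, near the lowest detected signal of that array, 5.64.

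The genes beside CDKN2A and CDKN2B were examined after these values were seen. In RefSeq gene order on chromosome 9, a run was extended both ways from CDKN2A while each gene was detected on fewer than 2 arrays. It held 24 consecutive genes with probes, from IFNB1 to LINC03106 and including MTAP, CDKN2A, CDKN2B and ELAVL2. The rule that drew the run keeps its count of detected readings low, and these genes gave 2 of 216. Those were KLHL9 in MXD3 line 1 and CDKN2A in the parental cells. Many of the 24 are interferon genes of near-identical sequence. By the same rule a detected gene lies on either side. HACD4 read 9.68 to 10.31 and CAAP1 7.18 to 8.25, both detected on all 8 arrays. Beyond HACD4, FOCAD was detected on 0 arrays and MLLT3 on 8. On the chromosome, 74.6% of 669 genes with a probe were detected on at least 2 arrays, and this was the longest undetected run. With so many interferon genes in the run, that share is no matched yardstick for it. Whether the locus is present in these cells was not tested.

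**Figure D4:**
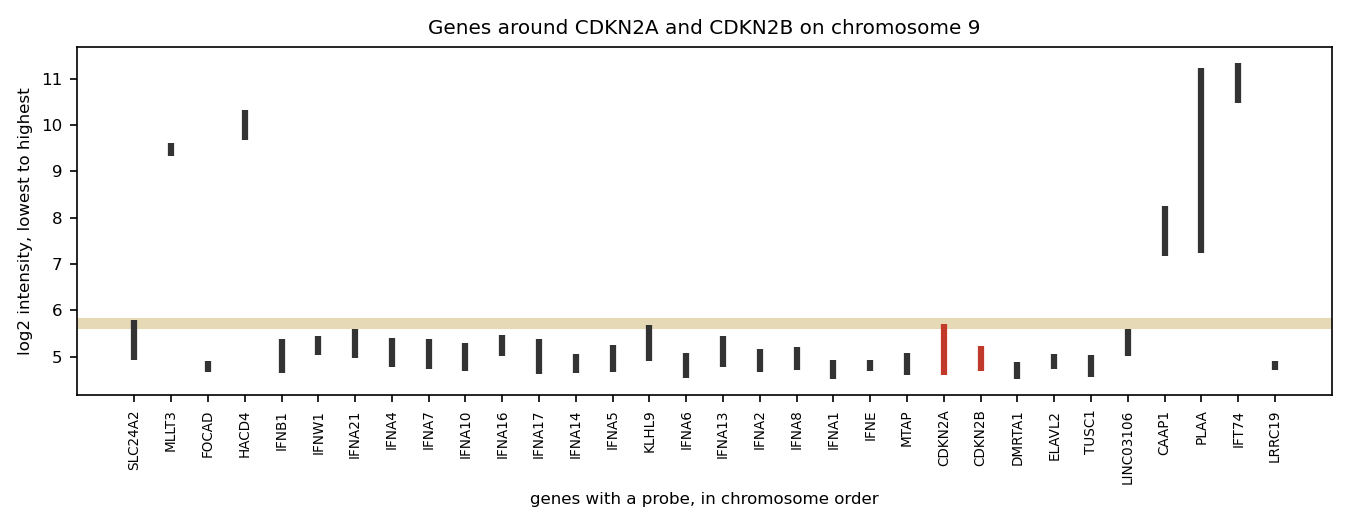
Log2 intensity of genes around CDKN2A and CDKN2B (red) in RefSeq order, each bar from the lowest to the highest reading over all 8 arrays and all probes of the gene; the band is the range of the lowest detected signal. The run of 24 genes was drawn by low detection and stays at or below 5.70. HACD4 and CAAP1 on its borders lie at 7.18 or higher.

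For the 3 tested pocket protein probes, the largest difference between the MXD3 mean and the mean of the 3 controls was 0.061, for RBL1. The vector lines exceeded the parental array by 0.24 for RBL2 (limma adjusted p = 0.908). RB1, which holds the activating E2F factors, was at 9.96, 9.83, 9.76, 9.63 and 9.85 across MXD3 lines, at 9.81 and 9.82 across vector lines, and at 9.74 for parental cells. The highest and the lowest arrays were both MXD3 lines. The difference was 0.02 ± 0.12 (SE), with a 95% interval of -0.26 to 0.29 (limma adjusted p = 0.970). RBL1 (p107) was at 8.55, 8.36, 8.64, 8.53 and 8.02 across MXD3 lines, at 8.45 and 8.31 across vector lines, and at 8.32 for parental cells. Line 5 was the lowest array, and the difference was 0.06 ± 0.16 (SE), with a 95% interval of -0.30 to 0.42 (limma adjusted p = 0.907). Its other probe, ILMN_1753013, read 4.57 to 4.87 and was detected on 0 arrays.

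RBL2 (p130, the pocket protein of quiescent cells) was at 10.04, 9.92, 9.90, 10.33 and 9.59 across MXD3 lines, at 10.12 and 9.87 across vector lines, and at 9.76 for parental cells. Line 4 was highest and line 5 lowest, with a difference of 0.04 ± 0.18 (SE) and a 95% interval of -0.36 to 0.43 (limma adjusted p = 0.951). MXD3 line 5 thus had the highest reading on both CDKN1A probes and the lowest for CDKN1B, RBL1 and RBL2. For CDKN1C, CDKN2D and RB1 it was neither the highest nor the lowest array. How often line 5 was the extreme array over all probes was not counted. Line 5 also had the lowest MXD3 reading, and a relation between the 2 was not tested.

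Of 22 pairs of member probes compared over the 8 arrays, none passed adjustment. CDKN1B and RBL1 had the highest correlation, r = 0.879 (exact permutation p = 0.0079, adjusted 0.173) and rho = 0.714 (exact permutation p = 0.0576, adjusted 0.594). Without MXD3 lines 1 and 5, the arrays farthest from the CDKN1B median, r was 0.597. RBL1 and RBL2 gave r = 0.725 (exact permutation p = 0.0449, adjusted 0.321). Leaving out MXD3 lines 3 and 5, the arrays farthest from the RBL1 median, gave 0.834. Among 10931 other probes detected on all arrays, the profile most like CDKN1A probe ILMN_1784602 over the 8 arrays was DGCR8 (r = 0.986). For the dim CDKN1A probe ILMN_1787212 it was SQLE (0.977). The profile most like CDKN1B was AMPH (0.982) and that most like CDKN2D was TRIM68 (0.973). For CDKN1C it was MAP1LC3B (0.956), for RB1 ULBP1 (0.943), for RBL1 ZNF775 (0.968) and for RBL2 RNF130 (0.974). From 4 probes (for RB1) to 97 (for CDKN1A, ILMN_1784602) had r over 0.9. The best of so many probes was at 0.94 or higher for every tested member probe. These are descriptions of 8 arrays.

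The partners and targets of these proteins also gave 0 calls in the MXD3 lines against the controls, and the genes named from each list are those with the smallest p. Of 17 probes for G1 cyclins and CDKs, 7 were positive, and CCNE2, a cyclin E that CIP/KIP proteins inhibit, had a difference of 0.66 ± 0.25 (SE). CCND1, the cyclin D1 partner of CDK4 and CDK6, had 0.58 ± 0.26. Of 10 E2F and DP probes, 7 were negative, with E2F4, the repressor E2F that RBL1 and RBL2 hold, at -0.48 ± 0.14 (limma adjusted p = 0.315). E2F5, its close relative, was at -0.29.

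Of 28 probes for E2F targets in DNA replication, 14 were positive, with CHAF1B at 0.32 and GINS1 at -0.44. The MuvB and MYB list had 5 of 8 positive, with the G2/M activator MYBL2 at 0.50 (not detected in the vector lines) and the histone-binding RBBP4 at -0.22. Of 23 probes for G2/M genes that RBL1 and RBL2 repress, 11 were positive, with the mitotic kinase PLK1 at -0.38 and the checkpoint kinase BUB1B at 0.28. The same list had 3 positive and 20 negative against the 2 vector lines, where 50.8% of all probes were positive. Against the single parental array the list had 17 positive and 6 negative, where 48.9% of all probes were positive. Both comparisons gave 0 calls for this list. The median of that list, relative to each probe's mean over the 8 arrays, was -0.47 in MXD3 line 5, against 0.02 to 0.21 in the other MXD3 lines, 0.11 for both vector lines and -0.22 for parental cells.

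Of 22 probes for p53 and its targets, 11 were positive, with TP53INP1, a p53 target, at 1.14 ± 0.33 (SE, limma adjusted p = 0.315), with GADD45A at 0.45. Of 18 ubiquitin ligase probes, 8 were positive, and both probes of SKP2, the receptor that marks CDKN1B for destruction, were at -0.42. Among 38 probes for regulators of the inhibitor genes, 20 were positive, with MNT at 0.51 and MYC at 0.55. RB cofactors gave 6 of 10 positive, with SIN3B at 0.27 and SUV39H1 at -0.23. Senescence-associated genes gave 8 of 14 positive, with IL1A at 1.34 and IGFBP5 at -1.84 ± 0.70. MLLT3, the only gene on the list of CDKN2A and CDKN2B neighbours to pass the detection filter, was at -0.00065. Of the 21 probes named from these lists, 5 did not overlap between the MXD3 lines and the controls, with E2F4 and RBBP4 lower and TP53INP1, MNT and MYC higher in all 5 MXD3 lines. The share over all probes was 7.6%, and since these 21 were named for their small p, nothing is read from their count.

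**Figure D5:**
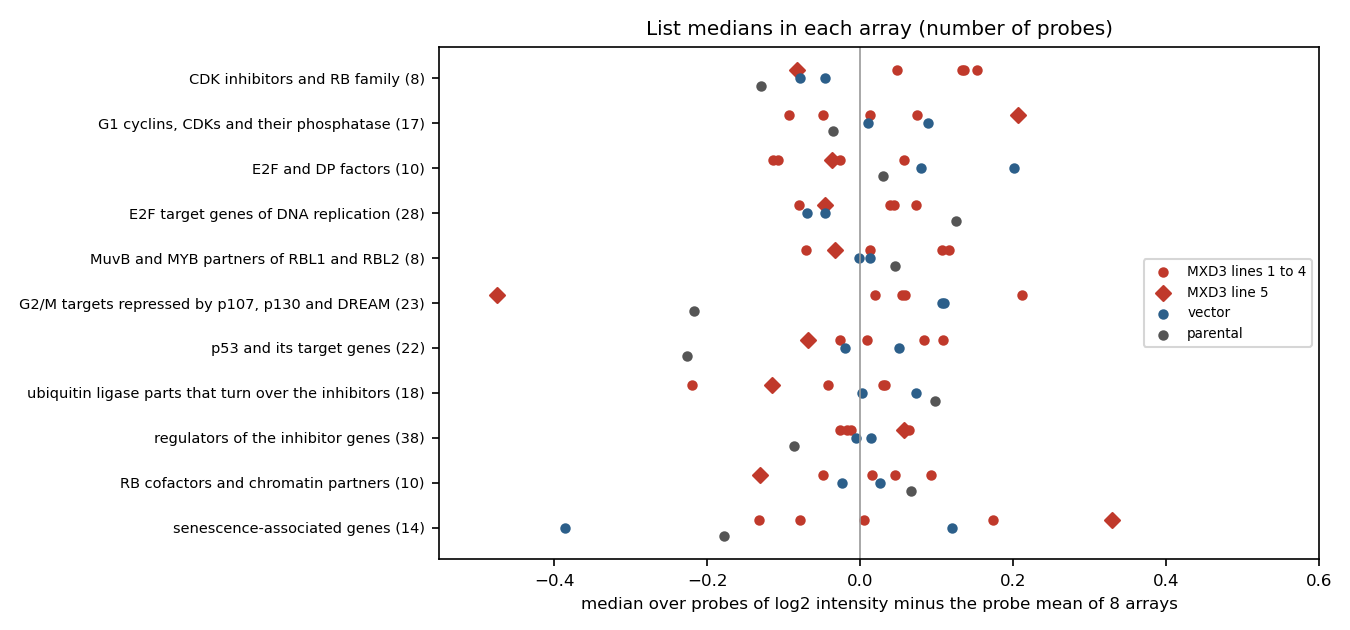
Median over the probes of each gene list (number of probes in brackets) of the log2 intensity minus the probe's mean over the 8 arrays, 1 point per array, with MXD3 line 5 as a diamond. The G2/M list lies at -0.47 in MXD3 line 5 and between 0.02 and 0.21 in the other MXD3 lines.

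Against the single parental array, 0 of the 8 member probes were called, against 0.00657% of all probes. CDKN1C alone had an unadjusted limma p below 0.05 (0.0268, adjusted 0.323), where 13% of all probes did, or 6.9% with higher means in the MXD3 lines. CDKN1A, CDKN1C and CDKN2D were above the parental array in all 5 MXD3 lines, 3 of 8 member probes against 46.2% of all probes that did not overlap. The vector lines against the parental array also gave 0 member calls, and 0 of the 8 had an unadjusted limma p below 0.05, against 7.48% of all probes, or 4.17% with higher means in the vector lines. In 6 of the 8 the vector lines did not overlap the parental array, against 69.3% of all probes. CDKN1A (ILMN_1784602) differed there by -0.13 (limma adjusted p = 0.980). These comparisons share their arrays with those above.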

How the data were processed

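The authors deposited probe intensity values that were not normalized, with a detection p-value per probe and array, per the file headers, and a table of intensity values they had normalized. The submitters' processing notes list BeadStudio; how that table was normalized is not stated. Probes were named through GEO's platform annotation, updated by Entrez ID: 19715 had 1 symbol, 0 several and 2469 none. Intensities were corrected and quantile normalized with neqc (offset 16) in limma 3.58.1 under R 4.3.3. Probes with a detection p-value below 0.05 on at least 2 arrays (15214) entered lmFit and eBayes, with two-sided p-values adjusted by Benjamini-Hochberg over these probes. One fit had MXD3 and control groups, and the other had MXD3, vector and parental groups. The members and gene lists were chosen with earlier results of these data known. Every member probe was named, and from each other list the probes with the smallest p. The number of arrays limits the precision. The fit was tested on simulated data with changes larger than any member difference against the controls. That test does not show whether changes as small as those of the members would be called.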

Additional observations from a re-analysis of the deposited data

Results flagged for a closer look

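PLK1, a mitotic kinase among the G2/M genes, read 9.13 in MXD3 line 5, apart from the other 4 MXD3 lines at 9.69 to 9.90. The gap to the nearest line was 0.724 of the range of the 5 lines, just past the cut of 0.71. PLK1 was 1 of 30 probes examined in this way, and it had been named for the smallest p in its list. Chance alone sets apart about 1 in 20 groups, so 1 flag among 30 is no more than that share.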

How the results depend on the processing

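No member probe passed the threshold in any comparison under any alternative run, and the count of all probes stayed at 0 for the MXD3 lines against the controls and against the vector lines. Against the parental array the count was 1, and it became 3 without background correction, 3 with the authors' normalized values and 2 with a trended, robust eBayes; leaving out 1 array at a time gave 1 to 1. For the vector lines against the parental array the count was 1, and 0 to 1 with 1 array left out (0 without MXD3 line 1, vector line 1 or vector line 2). The cause was not tested. The CDKN1A difference against the controls ran from 0.60 (without MXD3 line 5) to 0.94 (without MXD3 line 1), with limma adjusted p of 0.209 to 0.651.

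Of 926 alternative values for single probes, 889 kept direction and side of the threshold and 37 changed sign. With 1 array left out, the ranges of differences that changed sign were -0.361 to 0.0942 for CDKN1A (vector against parental), -0.0955 to 0.137 for its dim probe (MXD3 against parental), -0.50 to 0.84 for CDKN1C (MXD3 against vector, the latter a measured value against an undetected array), and for CDKN1B -0.119 to 0.131 (controls), -0.054 to 0.196 (vector) and -0.248 to 0.00182 (parental). They were -0.0223 to 0.0615 for RB1 (controls), -0.0477 to 0.0361 for RB1 (vector), -0.0257 to 0.142 for RBL1 (vector), -0.00853 to 0.126 for RBL1 (vector against parental), -0.0553 to 0.140 for RBL2 (controls), -0.167 to 0.0849 for RBL2 (vector) and -0.0422 to 0.0639 for MLLT3. Centring on the median gave -0.0180 for the dim CDKN1A probe, 0.0208 for CDKN1B, 0.0519 for RB1, 0.00512 for RBL2 and 0.0514 for MLLT3. The authors' values gave 0.0223 for CDKN1B, 0.0286 for RB1 and 0.0558 for MLLT3, and array weights gave 0.0454 for CDKN1B and 0.0159 for MLLT3.

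With the replicate number as a block, MXD3 against vector again gave 0 calls and RB1 turned to 0.0813. By the labels, same-numbered lines share only a number. Their deviations correlated at r = -0.287 and -0.173. With 2 vector lines the deviations mirror each other, so these values cannot decide whether the numbers pair the samples. Probes near the lowest detected signal, such as CDKN1C, had differences that background correction moved: 0.50 became 0.16 for CDKN1C against the controls. The parental group is 1 array, assumed to vary like the others.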
